A study of Saccharomyces cerevisiae with 8 samples.

Results

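Small nucleolar RNAs (snoRNAs) of the budding yeast Saccharomyces cerevisiae were measured in cells whose DEAD-box RNA helicase Dbp2 carried a tag for removal from the nucleus, and in cells without the tag. The 59 snoRNAs described were all features whose name begins with snR in the deposited table, less 8 that lie in introns, 7 of the snR72-78 cluster, snR52 and snR56. They make up 59 of 76 snoRNA rows and of 10891 features in all, and 32 of them are box C/D and 27 box H/ACA snoRNAs. The class came from RefSeq for all but snR17a and snR17b, the copies of the U3 snoRNA, which were counted as box C/D. In the R64 annotation none of the 59 lay inside another gene on its own strand. Partial overlaps with an annotated gene were found for snR10 (YGL088W), snR60 (YJL047C-A) and snR17a (IRC13), so their reads are less certain.

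The design had 4 groups of 2 cultures each, named as biological replicates: Dbp2-FRB-GFP cells with rapamycin, Dbp2-FRB-GFP cells without it, parental cells with rapamycin and parental cells without it. Rapamycin was given at 1 µg/mL for 1 h to cells in YPD medium at 30 °C and an OD600 of 0.5. All groups share the W303 background and the MATalpha mating type, with the alleles ade 2-1, trp1-1, can1-100 and his3-11,15, the leu2 allele usual in that background, and ura3 (GAL, psi+). All also carry the TOR1 allele tor1-1, the FPR1 deletion fpr1::NAT and the fusion RPL13A-2xFKBP12::TRP1. The tagged strain adds DBP2-FRB-GFP-KanMX6, which its source name states while its genotype entry is that of the parent. In this anchor-away system rapamycin bridges the FRB tag to the FKBP12 domains on a ribosomal protein, and the tagged protein leaves the nucleus with exported ribosomal subunits. The files hold RNA levels, so neither the depletion nor the function of the tagged Dbp2 was measured, and the sources used do not give the number of clones behind each strain.

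Box C/D snoRNAs guide the methylation of the ribose of rRNA by the methyltransferase Nop1, and box H/ACA snoRNAs guide pseudouridylation by Cbf5. A few of them (U3, U14, snR30 and snR10) are needed for cleavage of the rRNA precursor, and snR4 and snR45 guide the acetylation of rRNA cytidines by Kre33. Most yeast snoRNAs are made from their own RNA polymerase II transcripts, whose ends are formed by the endonuclease Rnt1, by termination through Nrd1, Nab3 and Sen1, and by exonucleases.

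The sequences of 5 box C/D members are shown because they had the 4 highest strain differences without rapamycin and the only negative one in that class. Coordinates are those of the R64 build: snR47 at chrIV:541602-541700 on the minus strand, snR48 at chrVII:609584-609696 on the plus strand, snR71 at chrVIII:411228-411317 on the plus strand, snR66 at chrXIV:586090-586175 on the plus strand, and snR87 at chrXI:431030-431138 on the minus strand. The RefSeq sequences run 5′ to 3′, and capitals mark TGATGA (the core of box C) in the first 20 nt and CTGA (box D) in the last 20 nt.
snR47: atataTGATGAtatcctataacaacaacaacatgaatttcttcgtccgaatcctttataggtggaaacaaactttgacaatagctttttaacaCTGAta
snR48: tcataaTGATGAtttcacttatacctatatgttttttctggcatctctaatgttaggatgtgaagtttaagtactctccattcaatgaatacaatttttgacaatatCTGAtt
snR71: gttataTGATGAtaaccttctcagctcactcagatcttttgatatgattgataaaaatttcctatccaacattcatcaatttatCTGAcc
snR66: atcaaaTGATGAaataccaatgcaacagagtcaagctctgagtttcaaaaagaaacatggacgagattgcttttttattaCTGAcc
snR87: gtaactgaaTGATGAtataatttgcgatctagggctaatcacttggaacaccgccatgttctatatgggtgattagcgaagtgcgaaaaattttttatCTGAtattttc

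Both boxes were found in all 5, so these letters do not separate snR87 from the 4 others. Over the whole class, TGATGA stood in the first 20 nt of 24 of 32 box C/D members (75.0%), 1 of 27 box H/ACA members (3.70%) and 59 of 6021 protein-coding genes (0.980%), searched on the transcribed strand. CTGA stood in the last 20 nt of 30 box C/D members (93.8%), 2 box H/ACA members (7.41%) and 9.65% of protein-coding genes.

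Of the box H/ACA class, snR8 is shown as the only member called lower in both strain comparisons, snR80 and snR85 for the highest values without rapamycin, and snR49 as a member called in a single strain comparison. Their positions are snR8 at chrXV:832332-832521 on the plus strand, snR80 at chrV:52150-52320 on the minus strand, snR85 at chrXIII:67768-67938 on the minus strand, and snR49 at chrXIV:716120-716284 on the plus strand. Capitals mark ACA where it stood in the last 10 nt.
snR8: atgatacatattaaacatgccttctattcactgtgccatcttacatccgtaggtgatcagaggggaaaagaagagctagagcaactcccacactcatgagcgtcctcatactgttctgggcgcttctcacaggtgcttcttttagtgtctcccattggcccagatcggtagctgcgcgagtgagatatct
snR80: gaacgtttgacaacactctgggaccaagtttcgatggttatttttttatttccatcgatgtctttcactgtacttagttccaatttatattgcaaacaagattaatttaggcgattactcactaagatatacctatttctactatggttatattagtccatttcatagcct
snR85: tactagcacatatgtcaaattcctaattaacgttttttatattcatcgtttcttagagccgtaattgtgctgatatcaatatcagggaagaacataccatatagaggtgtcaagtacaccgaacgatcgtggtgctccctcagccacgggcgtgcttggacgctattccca
snR49: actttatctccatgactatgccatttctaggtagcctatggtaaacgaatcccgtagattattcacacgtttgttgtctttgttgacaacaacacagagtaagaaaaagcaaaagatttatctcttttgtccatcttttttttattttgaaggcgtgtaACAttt

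Of these 4, snR49 alone holds ACA in that window, as do 17 of 27 box H/ACA members (63.0%), 6 of 32 box C/D members (18.8%) and 8.65% of protein-coding genes. The motif's presence did not separate snR8 from the members with the highest values.

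Yeast reads per library numbered 22523089 to 27500124, beside 747342 to 1267031 reads of ERCC spike-in RNAs (2.93 to 4.44% of yeast and spike-in reads). Spike-ins made up 2.93 and 3.19% in Dbp2-FRB-GFP cells with rapamycin and 3.43 and 3.65% without it. In parental cells they made up 4.05 and 3.86% with rapamycin and 4.44 and 3.90% without it. Every tagged library thus held a smaller spike-in share than every parental one. The members took 13.4 and 15.4% of yeast reads in Dbp2-FRB-GFP cells with rapamycin and 16.3 and 16.9% without it, against 13.4 and 12.3% in parental cells with rapamycin and 13.9 and 12.8% without it. Values are read densities (reads per nucleotide), scaled by the authors to the spike-ins. Fold changes are given as log2 of Dbp2-FRB-GFP over parental cells, or of rapamycin over untreated, ± standard error. They were fitted with limma across 9719 features on log2(density + pseudocount), and a member was called at a Benjamini-Hochberg adjusted p under 0.05. All 59 members passed the filter on low densities. In bulk RNA, fewer cells with a transcript and less of it per cell cannot be told apart. The summed density of 4 α-cell markers, the labelled mating type, was 28.8 to 35.8 in Dbp2-FRB-GFP and 52.8 to 57.6 in parental libraries, and that of 6 a-cell markers was 0.355 to 0.634 in Dbp2-FRB-GFP and 0.174 to 0.254 in parental libraries. Of the α-cell markers 2 were called lower in Dbp2-FRB-GFP cells in both strain comparisons, and of 5 a-cell markers tested 4 were called higher with and 3 without rapamycin. In 1 parental library with rapamycin 1 a-cell marker was at 0, and no α-cell marker was at 0 in any library. The part of these marker differences in the results was not tested.

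The members spanned a wide range of levels. The box C/D members snR190, which pairs with the rRNA of the large subunit, and snR17a averaged 2146 and 1914 reads per nt over the 8 libraries. The lowest box C/D densities were those of snR58 (0.536) and snR53 (0.857), read 28 to 65 and 45 to 108 times per library. The box H/ACA members ran from snR81 (19.9) and snR36 (36.8) to snR10 (506) and snR37 (933). Median densities were 12.3 for box C/D and 158 for box H/ACA members, whose median lengths were 100.5 and 203 nt. How well RNAs of each length were recovered in the libraries was not measured, so densities need not rank members by their amount in the cell. Reads of mature RNAs and of longer precursors were not told apart. Words such as abundant and rare refer to these densities. Over all 59, density and length had a Spearman correlation of 0.75, a description of members that share the same 8 libraries.

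With 1 h of rapamycin, nearly all members were higher in Dbp2-FRB-GFP than in parental cells. Of 32 box C/D members 30 were called higher, 0 lower and 2 (snR13 and snR87) neither, against 72.5% of all features called (70.3% higher and 2.13% lower), and their median log2 fold change was 0.76. Of 27 box H/ACA members 24 were called higher, 1 (snR8) lower and 2 (snR84 and snR86) neither, with a median of 0.53. The median of all features was 0.59, so the whole table leaned the same way and the box H/ACA median lay below it. Scaling to protein-coding features moved the median of all features to 0.12, and quantile normalization moved it to −0.02. The class medians were then 0.25 for box C/D and 0.02 for box H/ACA members under protein-coding scaling, and 0.30 and 0.02 under quantile normalization. Protein-coding scaling left 8 box C/D members called higher and 1 lower, and 1 box H/ACA member higher and 3 lower. Quantile normalization left 10 and 1, and 4 and 4. The share of all features called was taken on the spike-in scale alone, so these counts have no background beside them.

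The strains were also compared without rapamycin, which sets the tagged strain, with its FRB-GFP fusion, beside its parent in the absence of the drug. Of the box C/D members 31 were called higher and 1 (snR87) lower, against 46.2% of all features called (43.5% higher and 2.75% lower), with a median of 0.71. Of the box H/ACA members 23 were called higher, 1 (snR8) lower and 3 (snR49, snR84 and snR86) neither, with a median of 0.55. Both class medians exceeded the 0.36 of all features, which moved to 0.12 under protein-coding scaling and −0.02 under quantile normalization. The class medians were then 0.45 and 0.29, and 0.39 and 0.05. The called box C/D members were 15 higher and 1 lower under protein-coding scaling and 14 and 1 under quantile normalization, and the called box H/ACA members 7 and 2, and 6 and 3. Shares of all features called were again not taken under these scalings.

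**Figure D1:**
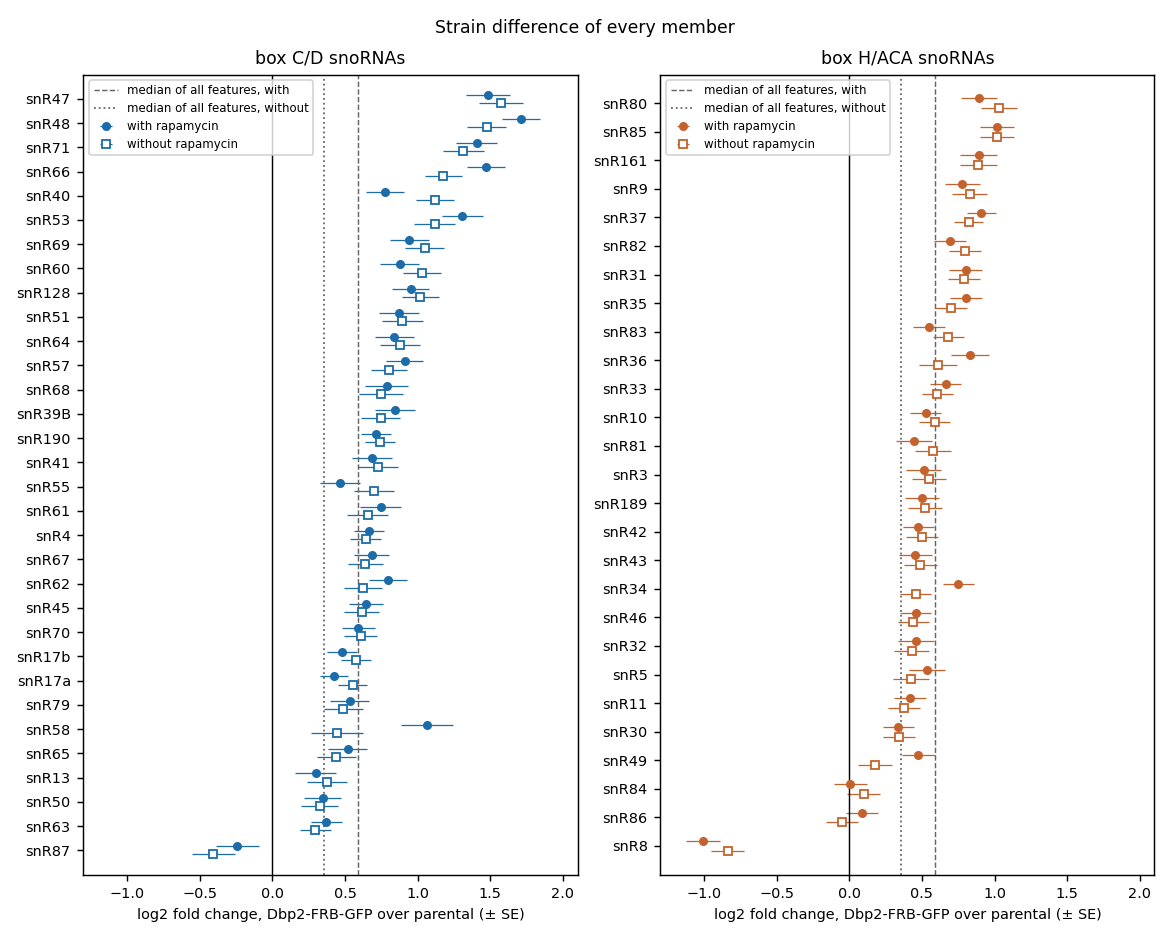
Log2 fold change of Dbp2-FRB-GFP over parental cells (± SE) for the 32 box C/D (left) and 27 box H/ACA members (right), with rapamycin (filled circles) and without it (open squares); dashed and dotted lines are the medians of all features with (0.59) and without rapamycin (0.36). Nearly every member lies right of 0, while snR8 and snR87 lie left of it in both comparisons and snR84 and snR86 lie near it.

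The members needed for cleavage of the rRNA precursor were called higher in both comparisons, 5 of 5 on the spike-in scale, where 70.3% of all features were called higher with and 43.5% without rapamycin. Their median was 0.48 with rapamycin, below the 0.59 of all features, and 0.57 without it, above the 0.36 of all features. The U3 copy snR17a had 2152 and 2210 reads per nt in Dbp2-FRB-GFP cells with rapamycin and 2294 and 2282 without it, against 1665 and 1588 in parental cells with rapamycin and 1481 and 1643 without it. Every tagged library stood above every parental one, by 0.42 ± 0.10 with rapamycin (limma adjusted p = 0.000851) and 0.55 ± 0.10 without it (0.000157). The less abundant copy snR17b differed by 0.48 ± 0.10 and 0.57 ± 0.10. The copies are identical at 81.6% of aligned positions, so their separate values are uncertain. With rapamycin snR17a was at −0.08 and snR17b at −0.03 under protein-coding scaling and snR17b at −0.17 under quantile normalization, and without it snR17a was at −0.15 under quantile normalization.

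U14 (snR128), which also guides a methylation in the small subunit rRNA, showed the largest difference of these 5. It had 393 and 444 reads per nt in Dbp2-FRB-GFP cells with rapamycin and 409 and 488 without it, against 243 and 192 in parental cells with rapamycin and 226 and 215 without it. The strains did not overlap, with 0.95 ± 0.13 with rapamycin (adjusted p = 2.38e-06) and 1.02 ± 0.13 without it (2.45e-06). With rapamycin it was not called under protein-coding scaling (0.44, adjusted p = 0.115) or quantile normalization (0.39, 0.0518), and without it was called under both (0.76 and 0.52). The box H/ACA member snR10 differed by 0.53 ± 0.11 with and 0.59 ± 0.11 without rapamycin. Under protein-coding scaling it was not called (0.02 with and 0.33 without rapamycin). Under quantile normalization it was called lower with rapamycin (−0.24, adjusted p = 0.0449) and was not called without it (0.05).

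The smallest difference of the 5 was that of snR30, an essential box H/ACA RNA. It had 465 and 448 reads per nt in Dbp2-FRB-GFP cells with rapamycin and 453 and 417 without it, against 370 and 353 in parental cells with rapamycin and 325 and 361 without it. The strains did not overlap but lay close, with 0.34 ± 0.11 in each comparison (adjusted p = 0.00867 with rapamycin and 0.0131 without it). With rapamycin the call ended without Dbp2-FRB-GFP rapamycin replicate 1 (0.0820). In untreated cells it ended without replicate 1 of Dbp2-FRB-GFP (0.143) or of parental cells (0.119). The sign of snR30 turned under quantile normalization (−0.21 in both comparisons) and, with rapamycin, under protein-coding scaling (−0.17).

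Both guides of rRNA acetylation rose on the spike-in scale. snR4 had 783 and 896 reads per nt in Dbp2-FRB-GFP cells with rapamycin and 830 and 817 without it, against 551 and 507 in parental cells with rapamycin and 530 and 526 without it. It was higher by 0.66 ± 0.11 with and 0.64 ± 0.11 without rapamycin, and snR45 by 0.64 ± 0.12 and 0.61 ± 0.12. Under protein-coding scaling neither was called (with rapamycin snR4 was at 0.16 and snR45 at 0.13, without it at 0.38 and 0.35), and under quantile normalization snR45 alone was, with rapamycin (0.31). snR35, the guide of a pseudouridine in the small subunit that is modified further, rose by 0.80 ± 0.11 with and 0.70 ± 0.11 without rapamycin, but was called under neither other scaling (0.30 and 0.44 under protein-coding scaling, 0.21 and 0.26 under quantile normalization). snR81, which guides pseudouridylation of the large subunit rRNA and of the U2 spliceosomal RNA, rose by 0.45 ± 0.12 and 0.58 ± 0.12. With rapamycin snR81 missed the threshold without parental rapamycin replicate 2 (adjusted p = 0.0545) and was at −0.06 under protein-coding scaling and −0.05 under quantile normalization.

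The highest values belonged to short box C/D methylation guides of modest level. snR47, a guide for both ribosomal subunits, had 11.6 and 13.3 reads per nt in Dbp2-FRB-GFP cells with rapamycin and 12.1 and 16.1 without it, against 4.87 and 4.07 in parental cells with rapamycin and 5.15 and 4.26 without it. It was 2.79-fold higher with rapamycin (1.48 ± 0.15, adjusted p = 1.14e-07) and 2.98-fold higher without it (1.57 ± 0.15, 1.07e-07). snR48, a large subunit guide, had 3.26 and 3.11 reads per nt in Dbp2-FRB-GFP cells with rapamycin and 2.45 and 2.56 without it, against 0.930 and 1.01 in parental cells with rapamycin and 0.910 and 0.881 without it. For both guides the lowest tagged library was more than 2-fold above the highest parental one. The snR48 values came from 278 to 315 reads in Dbp2-FRB-GFP libraries and 104 to 138 in parental ones, and its fold changes were 1.71 ± 0.13 with (3.05e-09) and 1.47 ± 0.13 without rapamycin (4.71e-08).

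The large subunit guides snR71 (1.41 ± 0.14 with and 1.31 ± 0.14 without rapamycin) and snR66 (1.47 ± 0.13 and 1.18 ± 0.13) and the small subunit guide snR53 (1.31 ± 0.14 and 1.12 ± 0.14) also rose. snR40, a guide for both subunits, rose by 0.77 ± 0.13 with and 1.12 ± 0.13 without rapamycin, and with rapamycin it was not called under either other scaling (0.27 and 0.29). snR47, snR48, snR71, snR66 and snR53 were called in both comparisons under each of the 18 alternatives, other scalings included, where the lowest value of any of these 5 was 0.80 (snR53 with rapamycin). With snR57, snR61 and snR62 they made up 8 box C/D members of which this held. Besides the members described singly, 8 box C/D members (snR39B, snR60, snR62, snR64, snR65, snR68, snR69 and snR79) were called in both comparisons on the spike-in scale, at 0.52 to 0.94 with and 0.44 to 1.05 without rapamycin. With rapamycin snR62 alone of these 8 stayed called under either other scaling. Without it snR60, snR62, snR64 and snR69 stayed called under both, and the others under neither.

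At the lower end of the class were snR63 (0.37 ± 0.11 with and 0.30 ± 0.11 without rapamycin) and snR50 (0.35 ± 0.13 and 0.33 ± 0.13), guides for the large subunit. snR13, of the same kind, was at 0.30 ± 0.14 with rapamycin (adjusted p = 0.0581, 95% interval 0.01 to 0.58) and 0.38 ± 0.14 without it (0.0296). Their calls depended on single libraries. With rapamycin snR50 missed the threshold without either parental rapamycin library and snR63 without Dbp2-FRB-GFP rapamycin replicate 2 (0.0849), while snR13 was called without replicate 1 of either rapamycin group (0.0139 for Dbp2-FRB-GFP and 0.0261 for parental) or without either Dbp2-FRB-GFP untreated library (0.0455 and 0.0456). Without rapamycin snR63 missed it without any 1 of the 4 untreated libraries, snR13 without replicate 2 of either untreated group, and snR50 without either Dbp2-FRB-GFP untreated library, parental untreated replicate 1 or either parental rapamycin library. The rare snR58 was at 1.07 ± 0.18 with and 0.45 ± 0.18 without rapamycin, and its call without rapamycin ended without Dbp2-FRB-GFP replicate 1 (0.283) or either parental untreated library (0.115 and 0.127). Scaling to protein-coding features turned snR13 (−0.21), snR50 (−0.16) and snR63 (−0.14) negative with rapamycin, and quantile normalization did so too (−0.20, −0.03 and −0.07).

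Among box H/ACA members the highest were snR80 (0.89 ± 0.12 with and 1.03 ± 0.12 without rapamycin), which guides sites in both subunits, and the small subunit guides snR85 and snR161. snR85 had 89.0 and 102 reads per nt in Dbp2-FRB-GFP cells with rapamycin and 97.5 and 105 without it, against 50.3 and 44.2 in parental cells with rapamycin and 51.2 and 49.0 without it. No tagged library came near the parental ones. It was higher by 1.02 ± 0.12 in both comparisons (adjusted p = 6.04e-07 with and 1.51e-06 without rapamycin) and was called in all 18 alternatives of both. snR161 rose by 0.89 ± 0.12 in both, and the abundant large subunit guide snR37 by 0.91 ± 0.10 with and 0.82 ± 0.10 without rapamycin. With rapamycin snR80 (0.38, adjusted p = 0.0969), snR161 (0.38, 0.104) and snR37 (0.40, 0.0888) were not called under protein-coding scaling. Under quantile normalization snR37 was at 0.00 in both comparisons. That method gives features of equal rank the same value, so it cannot show a rise that leaves the rank unchanged. The smallest called rises after snR30 were those of snR11, a large subunit guide (0.42 ± 0.11 with and 0.38 ± 0.11 without rapamycin), not called without rapamycin when Dbp2-FRB-GFP untreated replicate 1 was left out (adjusted p = 0.0848). The other 14 called members of the class were at 0.46 to 0.83 with and 0.43 to 0.83 without rapamycin. They were snR3, snR5, snR9, snR31, snR32, snR33, snR34, snR36, snR42, snR43, snR46, snR82, snR83 and snR189. With rapamycin none of these 14 was called under protein-coding scaling, and snR31 alone under quantile normalization. Without it snR31, snR82 and snR83 were called under protein-coding scaling, and snR9, snR31 and snR82 under quantile normalization.

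**Figure D2:**
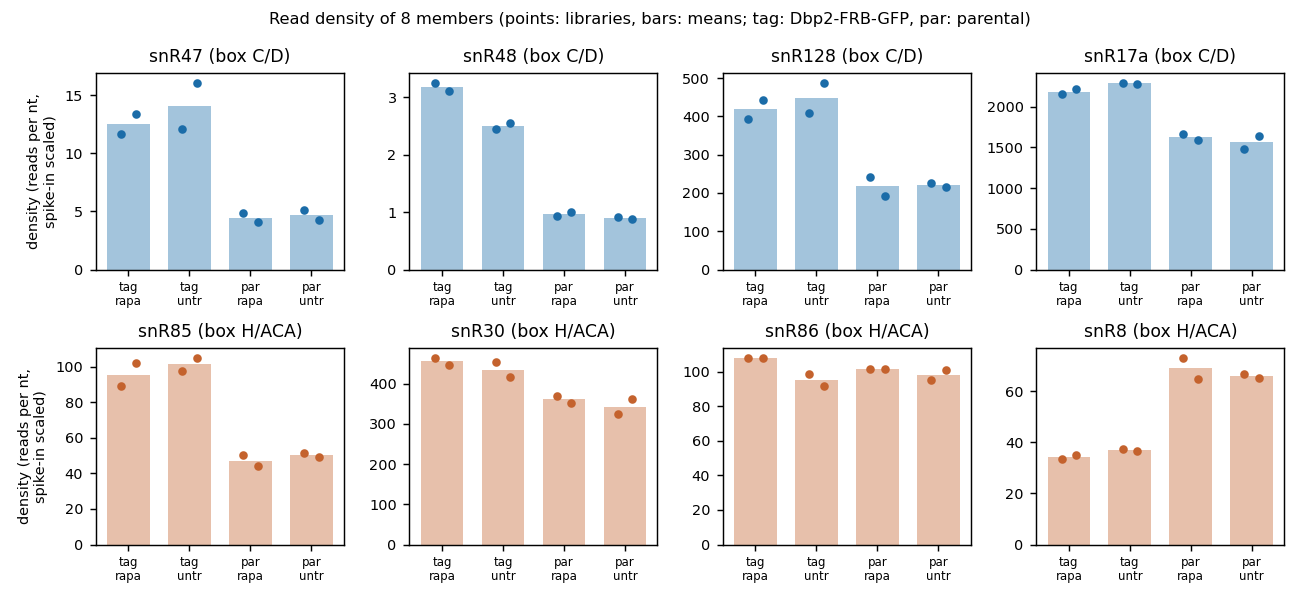
Spike-in-scaled read density (reads per nt, linear axis from 0) of 8 members in each group (tag: Dbp2-FRB-GFP, par: parental, rapa: rapamycin, untr: untreated); bars are means of 2 libraries and points the libraries. snR47, snR48, snR128 and snR85 stand far above the parental level in Dbp2-FRB-GFP cells, snR17a and snR30 moderately above it, snR86 near it and snR8 below it.

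The exception in both comparisons was snR8, a pseudouridine guide for the large subunit rRNA. It had 33.5 and 35.0 reads per nt in Dbp2-FRB-GFP cells with rapamycin and 37.5 and 36.4 without it, against 73.1 and 64.8 in parental cells with rapamycin and 66.8 and 65.2 without it. The replicates lay close together and the strains far apart, on 5258 to 7353 reads in Dbp2-FRB-GFP libraries and 12944 to 17044 in parental ones. snR8 fell by 1.01 ± 0.12 on the log2 scale with rapamycin (adjusted p = 4.56e-07) and by 0.84 ± 0.12 without it (9.95e-06), to 0.497 and 0.560 of the parental level. It was called lower in all 18 alternatives of both comparisons, with values from −1.51 to −0.92 with and −1.23 to −0.81 without rapamycin. YTM1, a ribosome biogenesis gene that begins 291 nt downstream on the same strand, did not fall with it: its values were 0.63 ± 0.16 with (called higher, 0.00207) and 0.27 ± 0.16 without rapamycin (0.173).

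snR87, a methylation guide for the small subunit rRNA, had 1.11 and 0.951 reads per nt in Dbp2-FRB-GFP cells with rapamycin and 0.801 and 0.978 without it, against 1.19 and 1.25 in parental cells with rapamycin and 1.11 and 1.25 without it, on 82 to 162 reads per library. The tagged libraries were all below the parental ones of the same treatment, by a small margin. With rapamycin it was at −0.24 ± 0.15 (adjusted p = 0.143, 95% interval −0.55 to 0.07), but at −0.75 (0.000637) under protein-coding scaling and −0.72 (0.00113) under quantile normalization. Without rapamycin it fell by 0.41 ± 0.15 (0.0296), and it was no longer called when Dbp2-FRB-GFP untreated replicate 1 (0.363) or parental untreated replicate 2 (0.123) was left out.

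The large subunit guides snR86 and snR84, at 1004 and 550 nt among the longest box H/ACA members, showed little difference on the spike-in scale. snR86 had 108 and 108 reads per nt in Dbp2-FRB-GFP cells with rapamycin and 98.3 and 91.6 without it, against 101 and 101 in parental cells with rapamycin and 95.3 and 101 without it. Its values were 0.09 ± 0.11 with rapamycin (95% interval −0.14 to 0.32) and −0.05 ± 0.11 without it (−0.28 to 0.18), on at least 85665 reads per library. snR84 was at 0.01 ± 0.11 (−0.23 to 0.24) with and 0.10 ± 0.11 (−0.14 to 0.34) without rapamycin. With rapamycin both were called lower under protein-coding scaling (−0.42 for snR86 and −0.50 for snR84) and quantile normalization (−0.29 and −0.41). Without rapamycin snR86 was also called lower under both, at −0.31 (adjusted p = 0.0349) and −0.35 (0.00254). snR49, which guides sites in both subunits, was at 0.48 ± 0.12 (adjusted p = 0.00126) with and 0.18 ± 0.12 (0.214, −0.06 to 0.42) without rapamycin. Its call with rapamycin was missed without Dbp2-FRB-GFP rapamycin replicate 2 (0.0575), its value was negative under both other scalings in either comparison, with a call in the lower direction under quantile normalization without rapamycin (−0.42, 0.00966), and the difference between the comparisons was not called (interaction 0.30 ± 0.16, adjusted p = 0.551).

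The 10 box C/D members released from shared transcripts were called higher in both comparisons, 10 of 10, with medians of 0.73 in each, beside 70.3 and 43.5% of all features called higher and their medians of 0.59 and 0.36. snR190 and snR128 come from the same precursor and rose by 0.71 ± 0.10 and 0.95 ± 0.13 with and by 0.74 ± 0.10 and 1.02 ± 0.13 without rapamycin. snR190 was called under neither other scaling, at 0.21 with and 0.48 without rapamycin under protein-coding scaling and 0.00 and 0.15 under quantile normalization. The 0.00 does not show that a rise was absent, because quantile normalization gives equal ranks equal values. In the snR41-snR70-snR51 transcript the values with rapamycin were 0.68 ± 0.14, 0.59 ± 0.11 and 0.87 ± 0.14, and those without it 0.72 ± 0.14, 0.61 ± 0.11 and 0.89 ± 0.14. The order within the snR190-snR128 and snR41-snR70-snR51 transcripts was thus the same in both comparisons, which share no library. The gap between snR41 and snR70 lay within the standard error of snR41. In the snR57-snR55-snR61 transcript the values were 0.91 ± 0.13, 0.47 ± 0.14 and 0.75 ± 0.14 with rapamycin and 0.80 ± 0.13, 0.70 ± 0.14 and 0.66 ± 0.14 without it, so snR55 and snR61 changed places. With rapamycin snR55 was not called without parental rapamycin replicate 2 (adjusted p = 0.104) and was at −0.04 under protein-coding scaling. In the snR67-snR53 transcript the values were 0.68 ± 0.12 and 1.31 ± 0.14 with and 0.64 ± 0.12 and 1.12 ± 0.14 without rapamycin. Members of the same precursor share their promoter. Mean densities were 2146 for snR190 beside 326 for snR128 and 27.2 for snR67 beside 0.857 for snR53. Recovery of each RNA was not measured, so these densities need not reflect the amounts in the cell.

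**Figure D3:**
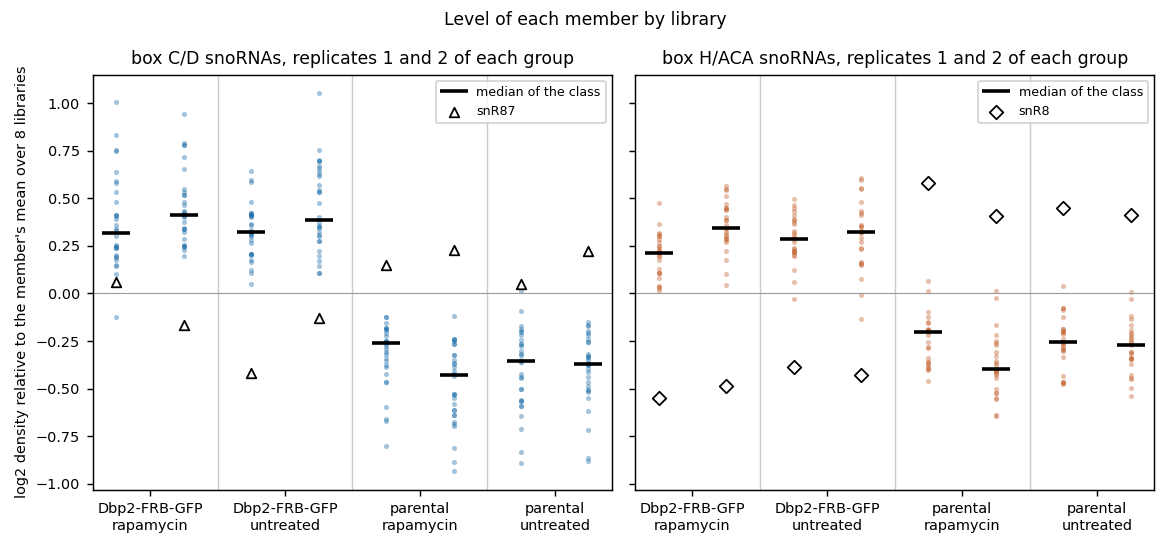
Log2 density of each member relative to its own mean over the 8 libraries, by library (replicates 1 and 2 of each group side by side), for box C/D (left) and box H/ACA members (right); bars are class medians, and open symbols are snR87 and snR8. The class medians lie above 0 in all 4 Dbp2-FRB-GFP libraries and below it in all 4 parental libraries, and snR8 does the reverse.

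Rapamycin moved no member past the threshold in Dbp2-FRB-GFP cells. By limma 0 of 59 were called, against 13.4% of all features called (13.3% higher and 0.144% lower). At an unadjusted p under 0.05 stood 3 box C/D and 0 box H/ACA members. No share of all features at the unadjusted threshold is given here or below, so these counts have no background beside them. The medians were 0.00 for box C/D and −0.01 for box H/ACA members, and 0.32 for all features. The 95% interval lay within 1.5-fold of no change for 55 of the 59. The others, named after their values were seen, were snR48 (0.35 ± 0.13, adjusted p = 0.0667), snR62 (0.39 ± 0.13, 0.0519), snR53 (0.40 ± 0.14, 0.0571) and snR58 (0.30 ± 0.18, 0.182). A voom fit on recovered reads called 1 member, snR62. Fits without either parental untreated library called snR48, snR53 and snR62, and the fit without Dbp2-FRB-GFP rapamycin replicate 2 called these and also snR13 (−0.42) and snR81 (−0.34). Under protein-coding scaling the medians were −0.35 for box C/D and −0.37 for box H/ACA members, and under quantile normalization −0.17 and −0.11.

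In parental cells 0 members were called by limma and 0 by voom, against 0.0309% of all features (0.0206% higher and 0.0103% lower). At an unadjusted p under 0.05 stood 0 box C/D members and 1 box H/ACA member, snR49 (−0.24 ± 0.12, adjusted p = 0.906). The medians were 0.02 for box C/D, −0.03 for box H/ACA members and 0.10 for all features, and the interval lay within 1.5-fold for 58 of 59, the exception being snR58.

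The interaction asks whether the rapamycin response differed between the strains. By limma 0 members were called and by voom 0, against 0.0412% of all features (0.0309% higher and 0.0103% lower). At an unadjusted p under 0.05 stood 1 member, snR58 (0.62 ± 0.26, adjusted p = 0.497), a large subunit methylation guide. It had 0.681 and 0.804 reads per nt in Dbp2-FRB-GFP cells with rapamycin and 0.657 and 0.550 without it, against 0.442 and 0.276 in parental cells with rapamycin and 0.450 and 0.429 without it. The strains overlapped in neither treatment, and the lowest library held 28 reads. The interaction interval lay within 1.5-fold for 49 of 59 members, and the medians were 0.03 for box C/D, 0.00 for box H/ACA members and 0.22 for all features. The interaction and the 4 other comparisons share libraries and are not independent.

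**Figure D4:**
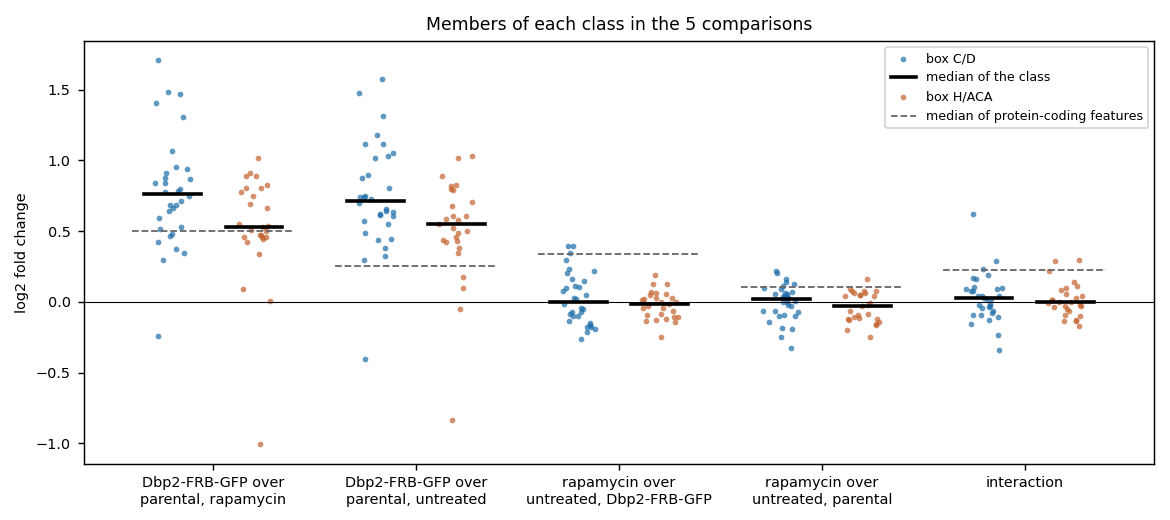
Log2 fold change of every member in the 5 comparisons, by class; thick bars are class medians and dashed lines the medians of protein-coding features. Both classes lie above 0 in the strain comparisons and around 0 for rapamycin in either strain and for the interaction, where the protein-coding medians are above 0 (0.34 in Dbp2-FRB-GFP cells, 0.11 in parental cells and 0.23 for the interaction).

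Set side by side, box C/D members had the higher median strain difference, by 0.23 with and 0.16 without rapamycin. A common scaling factor cancels in this gap, so its values of 0.23 and 0.16 under protein-coding scaling were fixed in advance and lend it no support. Under quantile normalization the gap was 0.29 and 0.34. That method acts by rank and can shift classes of unlike level by unlike amounts, so these values do not test the gap either. Leaving out a library of Dbp2-FRB-GFP cells moved the gap with rapamycin to 0.14 (replicate 1 left out) or 0.36 (replicate 2), and without rapamycin to 0.08 (replicate 2). The level of box C/D over box H/ACA members, relative to its mean over the libraries, was 1.07 and 1.05 in Dbp2-FRB-GFP cells with rapamycin and 1.03 and 1.04 without it, against 0.961 and 0.979 in parental cells with rapamycin and 0.933 and 0.934 without it. All 4 tagged libraries stood above all 4 parental ones. No test over members was made, because members are not replicates, and 2 libraries against 2 have 6 arrangements, too few for an exact test to reach 0.05.

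The classes also differ in length. The 25 box C/D members shorter than every box H/ACA member (under 161 nt) had medians of 0.84 with and 0.75 without rapamycin. The 7 longer ones (snR4, snR17a, snR17b, snR45, snR63, snR70 and snR190) had medians of 0.59 and 0.61, close to the box H/ACA medians of 0.53 and 0.55. Over all 59 members the strain difference and length had Spearman correlations of −0.49 with and −0.42 without rapamycin. Within box C/D these were −0.32 and −0.23, within box H/ACA −0.40 and −0.34, and among the 25 short box C/D members 0.00 and 0.05. The points share the same 8 libraries. Level and length had Spearman correlations of 0.75 over all 59 members, 0.58 within box C/D, 0.27 within box H/ACA and 0.14 among the 25 short box C/D members. Over all 59, length, level and class thus go together and cannot be told apart. Which of length and level the strain difference follows within a class was not tested.

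**Figure D5:**
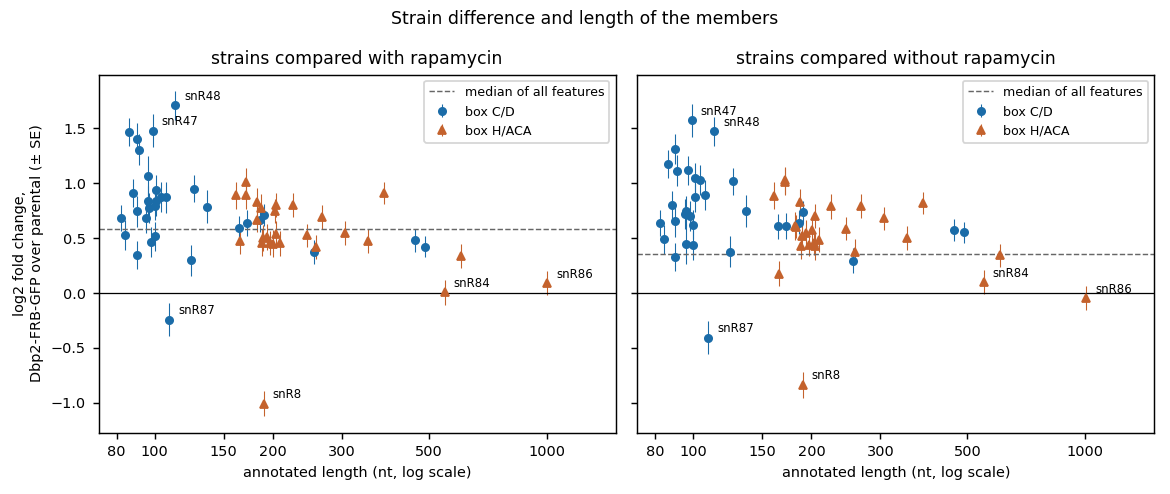
Log2 fold change of Dbp2-FRB-GFP over parental cells (± SE) against annotated length (nt, log scale), with rapamycin (left) and without it (right), for box C/D (circles) and box H/ACA members (triangles); the dashed line is the median of all features. The highest values are among box C/D members under 161 nt, snR84 and snR86 at 550 and 1004 nt lie near 0, and snR8 and snR87 lie below 0.

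By target, 6 box H/ACA members guide sites in the small subunit alone (snR31, snR35, snR36, snR83, snR85 and snR161). On the spike-in scale all 6 were called higher in both comparisons, with medians of 0.82 with and 0.75 without rapamycin. Of all features 70.3% were called higher with and 43.5% without rapamycin. Under protein-coding scaling snR85 alone of the 6 stayed called with rapamycin, and snR31, snR83, snR85 and snR161 without it. The 17 box H/ACA members annotated for the large subunit alone had medians of 0.48 and 0.49, with 14 called higher and 1 lower in each comparison. Among box C/D guides the medians were 0.64 with and 0.71 without rapamycin for the 8 small subunit guides and 0.80 and 0.74 for the 17 large subunit guides. With rapamycin the order of the subunits was thus the reverse of that in the box H/ACA class. Without it the box C/D medians lay close together. Whether these medians differ was not tested.

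The mRNAs of the proteins that bind these snoRNAs were described from lists of core, assembly and processing factors, against a background of 66.0% of protein-coding features called higher with and 33.1% without rapamycin. Of the 4 box C/D core proteins 1 was called higher in each comparison, SNU13 (0.98 ± 0.14 with and 0.80 ± 0.14 without rapamycin), while the methyltransferase NOP1 was at 0.00 ± 0.13 (adjusted p = 0.977) and −0.14 ± 0.13 (0.402). Of the 4 box H/ACA core proteins NOP10, NHP2 and GAR1 were called higher with rapamycin and NOP10 without it (0.81 ± 0.14 and 0.53 ± 0.14), while the pseudouridine synthase CBF5 was at 0.11 ± 0.14 and −0.14 ± 0.14. Of 9 snoRNP assembly factors 9 were higher with rapamycin and 3 without it (HIT1, RSA1 and TAH1), the count without the drug lying at the background share. Of 17 genes for end processing and termination 11 were higher with and 4 without rapamycin (NRD1, LRP1, RNT1 and MPP6), close to or below those shares. NRD1, whose product acts in termination at snoRNA ends, rose by 1.13 ± 0.14 and 1.06 ± 0.14, and RNT1, the endonuclease, by 0.98 ± 0.16 and 0.65 ± 0.16. None of the genes on these 4 lists was called lower in either strain comparison. Of 6084 protein-coding features, 147 were called lower with and 199 without rapamycin. The lists are too short for an absence of lower calls to stand out from that background. The list medians of 0.31 to 0.53 with and 0.04 to 0.26 without rapamycin stand beside 0.50 and 0.26 for all protein-coding features.

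Protein-coding genes on the same strand within 1000 nt downstream of a member numbered 29. Of these 17 were called higher with and 6 without rapamycin and 0 lower. Among all 6084 protein-coding features 66.0 and 33.1% were called higher, and 147 and 199 features lower. The medians of the 29 downstream genes, 0.42 and 0.16, lay below the 0.50 and 0.26 of all protein-coding features. Among the downstream genes, HEM4, a heme synthesis gene 210 nt behind snR5, stood past a log2 fold change of 1 (1.04 ± 0.16 with rapamycin), while snR5 itself rose by 0.53 ± 0.12. Across the 31 pairs of member and neighbour the strain differences had Spearman correlations of −0.31 with and −0.20 without rapamycin, as a description.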

How the data were processed

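Strand-specific total RNA-seq was made from 125 ng of rRNA-depleted RNA with a TruSeq Stranded Total RNA kit, per the labels' protocols. Trim Galore, HISAT2 2.2.0, featureCounts 2.0.0, DESeq2 and the R64 genome are named in the submitters' processing notes, without the strand setting of the counting or when spike-ins were added. The deposited signal is a read density per nucleotide that the authors scaled to ERCC spike-ins, and it gave whole reads for 100% of values above 0 (tolerance 0.01). From it limma 3.58.1 in R 4.3.3 fitted the 4 groups together on log2(density + 0.007347, the 5th percentile) with a trended prior, for 9719 features with a mean density of at least 0.01272 (10th percentile), with Benjamini-Hochberg adjustment over all of them; features called CUT, NUT and XUT in the table were tested too. The script was tested on simulated data. The chi-square statistic between replicate libraries was 5.01 to 20.1 per degree of freedom over all features and 42.4 to 153 over the members, above sampling noise in every group. Intervals and p-values rest on the spread between these cultures, drawn toward the trend over all features. The prior carried 17.23 degrees of freedom (median) beside 4 of each feature's own, so the spread is mostly shared between features of like level. The members and lists were chosen with earlier results of these data known. Named are the members needed for rRNA precursor cleavage with snR190, snR4, snR45, snR35 and snR81, the 3 highest and 3 lowest called members of each class and comparison, members called lower, those of shared transcripts and the 2 most and least abundant; snR13, snR49, snR62, snR84, snR86, NRG1, MPS2 and the members listed only with a range were added with values in view. The alternatives changed the pseudocount, filter, scaling, prior, replicate block, libraries and model (voom).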

Additional observations from a re-analysis of the deposited data

How the results depend on the processing

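On the spike-in scale, pseudocounts at the 1st and 25th percentiles, no filter or one at the 25th, no trend of the prior, the replicate block, fits on the compared libraries (not possible for the interaction) and voom (chosen after seeing the data) left class medians and counts of calls in the strain comparisons within 1.5 times. In Dbp2-FRB-GFP cells with against without rapamycin, the 25th percentile pseudocount and filter each called 2 box C/D members and voom 1, where the reported count was 0. Without a trend of the prior 7 of 74 named member values missed the threshold. Replicate numbers do not pair the libraries (correlations −0.134 to 0.146 over 6 pairs of groups); with the replicate block 29 box C/D and 25 box H/ACA members were called with rapamycin and 29 and 24 without, 0 in the other comparisons, and snR50 (0.0578 with, 0.106 without), snR63 (0.0585) and snR87 (0.0520) missed the threshold.

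Scaling decided most calls, and the share of all features called was taken on the spike-in scale alone. Quantile normalization gives features of equal rank the same value, so a rise that leaves the rank unchanged cannot show. Protein-coding scaling and quantile normalization called 9 and 11 box C/D members with rapamycin (medians 0.25 and 0.30), 4 and 8 box H/ACA members (0.019 and 0.015), and, without rapamycin, 16 and 15 box C/D (0.45 and 0.39) and 9 and 9 box H/ACA members (0.29 and 0.050). Medians for rapamycin in Dbp2-FRB-GFP cells were −0.35 and −0.17 for box C/D and −0.37 and −0.11 for box H/ACA members, in parental cells −0.089 and −0.073 for box C/D and −0.14 for box H/ACA under protein-coding scaling, and for the interaction −0.22 and −0.12 for box C/D and −0.25 for box H/ACA under protein-coding scaling. The cause was not tested.

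With rapamycin, signs turned under protein-coding scaling for snR11 (−0.087), snR13 (−0.21), snR17a (−0.084), snR17b (−0.026), snR30 (−0.17), snR49 (−0.032), snR50 (−0.16), snR55 (−0.040), snR63 (−0.14), snR81 (−0.060), snR84 (−0.50) and snR86 (−0.42) and, among members given only by a range, snR32 (−0.048), snR42 (−0.031), snR43 (−0.052), snR46 (−0.052) and snR189 (−0.0076), and under quantile normalization for snR10 (−0.24), snR11 (−0.068), snR13 (−0.20), snR17b (−0.17), snR30 (−0.21), snR49 (−0.050), snR50 (−0.027), snR63 (−0.066), snR81 (−0.048), snR84 (−0.41) and snR86 (−0.29) and also snR32 (−0.037), snR46 (−0.15) and snR83 (−0.039). Without rapamycin they turned under quantile normalization for snR11 (−0.052), snR17a (−0.15), snR30 (−0.21), snR49 (−0.42), snR63 (−0.14) and snR84 (−0.18) and also snR5 (−0.041), snR32 (−0.057), snR33 (−0.041), snR34 (−0.085) and snR46 (−0.080), and under protein-coding scaling for snR49 (−0.083) and snR84 (−0.16). snR84 with rapamycin ranged from −0.037 (without parental rapamycin replicate 2) to 0.053 over the fits that leave out a library, with −0.0097 without Dbp2-FRB-GFP rapamycin replicate 2, and snR86 without rapamycin at 0.0034 without Dbp2-FRB-GFP untreated replicate 2.

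Leaving out 1 library at a time gave 28 to 31 box C/D and 24 to 25 box H/ACA members called with rapamycin (medians 0.66 to 0.81 and 0.42 to 0.63), 27 to 32 and 22 to 24 without it (0.61 to 0.77 and 0.51 to 0.58), 0 to 4 and 0 to 1 for rapamycin in Dbp2-FRB-GFP cells (−0.080 to 0.068 and −0.10 to 0.043), and 0 and 0 in parental cells (−0.062 to 0.066 and −0.12 to 0.028) and the interaction (−0.039 to 0.091 and −0.088 to 0.079). The rarest member, snR58, with 28 to 65 reads per library, had the largest standard error of the 59 (0.18).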

Other observations

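The strain difference was also described by level. The 16 box C/D members above their class's median density had median strain differences of 0.67 with and 0.67 without rapamycin, and the 16 at or below it 0.86 and 0.81. The 13 box H/ACA members above their class's median had 0.66 and 0.61, and the 14 at or below it 0.49 and 0.51. Spearman correlations of the strain difference with mean density were −0.38 with and −0.12 without rapamycin over the 32 box C/D members, and 0.07 and −0.04 over the 27 box H/ACA members, so the split of the box H/ACA class was not matched by a correlation. These are descriptions of members measured in the same 8 libraries, and the differences were not tested.

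Among all 6084 protein-coding features 66.0% were called higher with and 33.1% without rapamycin, and 147 and 199 features lower, with medians of 0.50 and 0.26. Protein-coding genes ending within 1000 nt upstream of a member on the same strand numbered 25. Of these 21 were called higher with and 9 without rapamycin and 0 lower (medians 0.48 and 0.27). Among them, chosen after their values were seen, NRG1, which encodes a transcriptional repressor and lies 973 nt before snR47, had log2 fold changes of 1.11 with and 0.75 without rapamycin, and MPS2, a spindle pole body gene 455 nt before snR39B, 1.12 and 0.77. Across the 29 pairs the Spearman correlations of member and neighbour were 0.10 with and 0.16 without rapamycin.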
